A study of Homo sapiens with 8 samples.

Results

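The 10 genes described here, of 15597 listed in every library, encode ligands and receptors of the tumour necrosis factor (TNF) family and were taken by gene symbol. They are 5 ligands, TNFSF10, LTA, LTB, TNF and CD70, and 5 receptors, TNFRSF10A, TNFRSF10B, FAS, CD40 and TNFRSF13C. RNA was sequenced from SUDHL-4 cells, an established line of germinal-centre diffuse large B-cell lymphoma, in 8 libraries of 4 groups with 2 libraries each. The groups were FDX1-overexpressing (FDX1-OE) cells given 5 nM elesclomol (ES), FDX1-OE cells given DMSO, control cells given ES and control cells given DMSO, all sampled at 48 h. Control cells carry the genotype label WT, and the vector, the number of clones and any empty-vector treatment of the controls are not given in the labels. Elesclomol is a copper ionophore, and FDX1 encodes ferredoxin 1, a mitochondrial iron-sulphur protein that elesclomol can act through. The title poses the question of how FDX1 overexpression alters gene expression under elesclomol.

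Ligands of the TNF family are mostly trimers made at the cell surface that bind receptors on the same or on neighbouring cells. Receptors with a death domain, such as FAS and the TRAIL receptors, can recruit FADD and caspase-8 and start apoptosis, whereas most others recruit TRAF adaptors and switch on NF-kB. In B cells, CD40 and the BAFF receptor carry survival signals, and lymphotoxins made by B cells organise lymphoid tissue.

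Library totals recovered from the deposited values lay between 33435438 and 35883528 reads, and the values are FPKM, reads scaled to gene length and library total. FDX1 itself was at 82.5 and 84.8 FPKM in FDX1-OE cells given ES and at 72.4 and 69.9 FPKM in FDX1-OE cells given DMSO, against 21.3 and 21.4 FPKM in control cells given ES and 25.6 and 22.2 FPKM in control cells given DMSO, as the labels have it. The 8 germinal-centre B cell markers searched were all above 1 FPKM in every group. Of the myeloid markers, CD14, LYZ, CSF1R and ITGAM were under 1 FPKM throughout, whereas CD68 and FCER1G passed that level and moved with several genes below. The 6 listed myeloid markers summed to between 36.7 and 39.7 FPKM in FDX1-OE cells given ES, 7.07 and 8.18 FPKM in FDX1-OE cells given DMSO, 12.3 and 16.5 FPKM in control cells given ES, and 4.03 and 4.30 FPKM in control cells given DMSO. The 5 listed T and NK cell markers summed to between 7.60 and 8.52, 5.23 and 7.19, 7.09 and 7.41, and 4.10 and 5.03 FPKM in the same order of groups, with 4 of the 5 under 1 FPKM throughout. CD3E carried that sum and was higher with ES in FDX1-OE cells (log2 change 0.35, adjusted p = 0.0346) and in control cells (0.60, adjusted p = 0.00417). The first call was lost without replicate 1 of FDX1-OE cells given DMSO (0.16, adjusted p = 0.312) or given ES (adjusted p = 0.173), with no filter (adjusted p = 0.133) and under RLE scaling (adjusted p = 0.148). The 9 epithelial, stromal and endothelial markers summed to between 1.80 and 2.08, 0.475 and 0.508, 0.823 and 0.867, and 0.451 and 0.571 FPKM. The part of all these markers in the results was not tested.

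The sequences before the start sites of 4 ligand genes are shown because each of these ligands rose under ES and was in the promoter set used. CD70, the other ligand, also rose but was not in that set. They are the 250 bases before the RefSeq start in GRCh38.p14, written 5′ to 3′ along the gene. Capitals mark matches to 3 motifs, searched on both strands over 300 bases that run 50 past the start. The motifs are the core repeat of the interferon-stimulated response element (ISRE), which is GAAA, any 2 bases and GAAA, the GAS palindrome, which is TTC, any 3 bases and GAA, and the NF-kB consensus. LTA has a second RefSeq start, and the one shown holds matches to both GAS and NF-kB. The LTA start not shown holds 2 GAS matches and no NF-kB match. Of the 10 genes, RefSeq rows were used for TNFSF10, FAS, LTA, LTB and TNF.
TNFSF10, chr3:172523431-172523680, minus strand: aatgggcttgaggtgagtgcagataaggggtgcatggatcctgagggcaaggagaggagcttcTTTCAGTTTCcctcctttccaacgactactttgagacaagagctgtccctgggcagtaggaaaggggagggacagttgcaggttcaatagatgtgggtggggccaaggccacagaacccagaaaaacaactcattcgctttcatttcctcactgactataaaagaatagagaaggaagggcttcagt
LTA, chr6:31572039-31572288, plus strand: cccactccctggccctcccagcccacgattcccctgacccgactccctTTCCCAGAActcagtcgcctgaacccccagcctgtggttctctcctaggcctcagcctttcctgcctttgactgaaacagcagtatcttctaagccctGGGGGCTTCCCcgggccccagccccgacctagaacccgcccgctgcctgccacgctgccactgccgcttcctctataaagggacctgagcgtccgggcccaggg
LTB, chr6:31582426-31582675, minus strand: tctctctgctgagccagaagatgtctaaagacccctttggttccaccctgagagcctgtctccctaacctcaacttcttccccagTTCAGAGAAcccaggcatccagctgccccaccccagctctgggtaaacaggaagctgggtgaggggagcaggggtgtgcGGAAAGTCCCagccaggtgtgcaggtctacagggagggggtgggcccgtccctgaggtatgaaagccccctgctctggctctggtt
TNF, chr6:31575315-31575564, plus strand: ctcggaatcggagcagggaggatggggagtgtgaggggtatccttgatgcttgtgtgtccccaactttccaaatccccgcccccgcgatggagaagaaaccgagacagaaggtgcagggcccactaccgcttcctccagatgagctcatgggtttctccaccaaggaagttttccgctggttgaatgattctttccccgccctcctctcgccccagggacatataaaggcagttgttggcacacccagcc

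The TNFSF10 stretch holds 1 ISRE match, at position -187 from the start, on the strand opposite to the gene. The LTA stretch holds a GAS match at -202 and overlapping NF-kB matches. The LTB stretch holds a GAS match at -165 and an NF-kB match, with a further NF-kB match past the start. The TNF stretch holds none of the 3 motifs. Of 35116 promoters of the same length, 3.57% hold the ISRE repeat, 7.66% the GAS palindrome and 11.3% the NF-kB consensus. These shares are per start, whereas more than 1 start was searched for LTA, LTB and FAS. Of the FAS starts, which are not shown, only 1 held an NF-kB match and none an ISRE or GAS match. These are matches of letters and do not show binding. In the reference annotation (GENCODE 29), LTA, TNF and LTB are neighbouring coding genes on chromosome 6, and CD70 lies between TNFSF9 and TNFSF14 on chromosome 19.

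Without ES the receptors led the family. In control cells given DMSO, CD40 had the highest mean of the 10, 19.2 ± 0.163 FPKM (SD, n = 2), and the means of TNFRSF10A, TNFRSF13C and LTB lay between 17.8 and 13.8 FPKM. TNFRSF10A and TNFRSF13C overlapped in their libraries, as did TNFRSF10B and TNF further down. TNFSF10 averaged 0.394 ± 0.0560 FPKM there and stood above FAS alone. In FDX1-OE cells given ES the order was led by LTB, at 45.7 ± 2.71 FPKM, and CD40, at 42.6 ± 0.779 FPKM, and TNFSF10 came next at 17.9 ± 1.42 FPKM. TNFRSF13C and TNF overlapped in that group, and the other neighbours in the order did not. FAS was the lowest of the 10 in every group. RNA was taken from whole cultures, so fewer cells that make a transcript and less transcript per cell cannot be told apart.

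**Figure D1:**
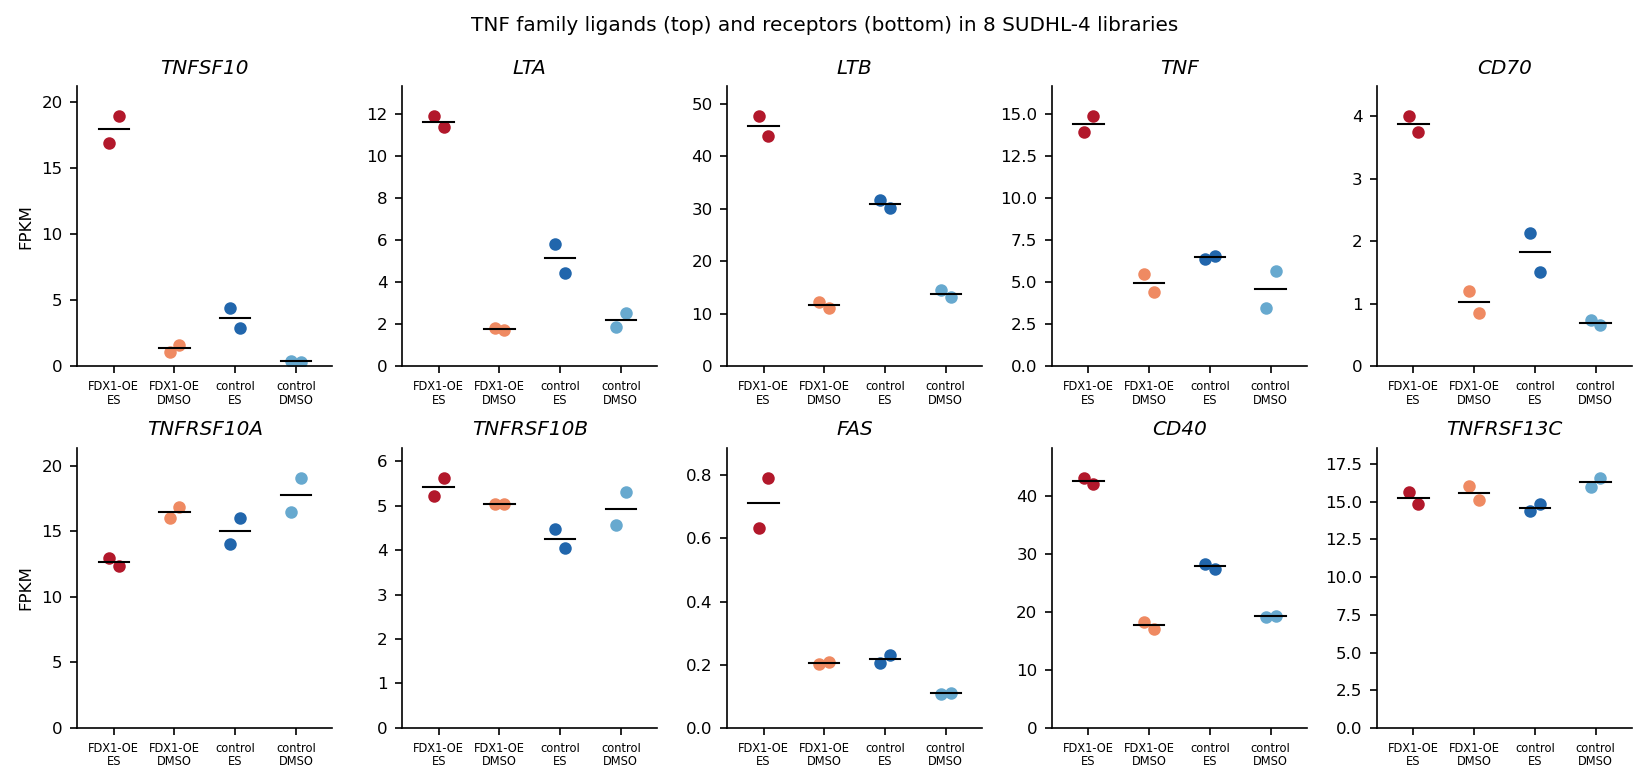
FPKM of the 10 genes in each of the 8 libraries, with ligands in the top row and receptors in the bottom row. Points are libraries and bars are group means (n = 2). TNFSF10 is at 16.9 and 18.9 FPKM in FDX1-OE cells given ES and under 5 FPKM in the 6 other libraries, whereas TNFRSF13C stays between 14.4 and 16.6 FPKM.

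All 5 ligands and CD40 rose with ES in both kinds of cell, with the larger log2 changes in FDX1-OE cells. Of the 9 genes with enough signal to be tested, 6 rose and 1 fell in FDX1-OE cells given ES against those given DMSO, and 6 rose in control cells, each at an adjusted p below 0.05. Across all 9805 genes tested, 37% rose and 19.2% fell in FDX1-OE cells and 25.5% rose and 12.9% fell in control cells. The median log2 change of the 9 was 1.27 in FDX1-OE cells, against 0.09 for all genes tested, and 0.51 in control cells, against 0.06. The members and the other gene lists were chosen with earlier results of these data known. Their counts and medians, here and below, therefore describe these genes and do not test the family. The level filter was applied once over all 8 libraries. Without ES, CD70 reached 1 FPKM only in replicate 1 of FDX1-OE cells given DMSO (1.20 FPKM). It therefore passed the filter only through its values under ES, for both kinds of cell. TNFSF10 was under 1 FPKM in both control libraries given DMSO but at 1.10 and 1.62 FPKM in FDX1-OE cells given DMSO. With the libraries rescaled by median ratios (RLE) the median of all genes in FDX1-OE cells was -0.03 in place of 0.09, and 43.1% of the calls were higher in place of 65.9%. In control cells the share of calls that were higher was 44.2% under that scaling, in place of 66.3%.

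TNFSF10 encodes TRAIL, a ligand that can trigger apoptosis through its death receptors. It was at 16.9 and 18.9 FPKM in FDX1-OE cells given ES, against 1.10 and 1.62 FPKM in FDX1-OE cells given DMSO. It was at 4.43 and 2.88 FPKM in control cells given ES, against 0.434 and 0.355 FPKM in control cells given DMSO. In both kinds of cell the ES libraries lay above all DMSO libraries, and these levels rest on 1756 and 1993, 116 and 162, 443 and 292, and 45 and 38 reads in the same order. The log2 change on FPKM + 1 was 3.01 ± 0.15 (SE) in FDX1-OE cells, with an adjusted p of 2.65e-07, and 1.72 ± 0.15 in control cells, with an adjusted p of 2.68e-05. That scale understates low genes, and the ratio of mean FPKM was 13.2 in FDX1-OE cells and 9.27 in control cells.

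The lymphotoxins followed. LTA, lymphotoxin alpha, which can be secreted as a homotrimer, was at 11.9 and 11.4 FPKM in FDX1-OE cells given ES, against 1.84 and 1.73 FPKM in FDX1-OE cells given DMSO. It was at 5.81 and 4.46 FPKM in control cells given ES, against 1.88 and 2.55 FPKM in control cells given DMSO. LTA rose by a log2 change of 2.18 ± 0.12 in FDX1-OE cells (adjusted p = 4.51e-07) and of 0.93 ± 0.12 in control cells (adjusted p = 0.000286), and its groups did not overlap in either. LTB, lymphotoxin beta, which holds lymphotoxin alpha at the cell surface, was at 47.7 and 43.8 FPKM in FDX1-OE cells given ES, against 12.3 and 11.1 FPKM in FDX1-OE cells given DMSO. It was at 31.6 and 30.2 FPKM in control cells given ES, against 14.5 and 13.2 FPKM in control cells given DMSO. All 4 ES libraries lay above all 4 DMSO libraries, with log2 changes of 1.88 ± 0.07 in FDX1-OE cells (adjusted p = 7.85e-08) and 1.11 ± 0.07 in control cells (adjusted p = 4.50e-06).

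TNF, the inflammatory cytokine that names the family, was at 14.0 and 14.9 FPKM in FDX1-OE cells given ES, against 5.52 and 4.40 FPKM in FDX1-OE cells given DMSO. It was at 6.42 and 6.59 FPKM in control cells given ES, against 3.50 and 5.68 FPKM in control cells given DMSO. The groups did not overlap in either kind of cell, but the 2 control libraries given DMSO stood apart. TNF rose by a log2 change of 1.38 ± 0.15 in FDX1-OE cells (adjusted p = 3.49e-05) and of 0.45 ± 0.15 in control cells (adjusted p = 0.0373). The control call was lost without replicate 1 of control cells given DMSO (log2 change 0.17, adjusted p = 0.301) and without either control ES library (adjusted p = 0.0985 and 0.118). It was also lost with no level filter (adjusted p = 0.168) and under RLE scaling (adjusted p = 0.0722).

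CD70, the ligand of CD27, was at 4.01 and 3.75 FPKM in FDX1-OE cells given ES, against 1.20 and 0.862 FPKM in FDX1-OE cells given DMSO. It was at 2.13 and 1.52 FPKM in control cells given ES, against 0.735 and 0.661 FPKM in control cells given DMSO. All ES libraries were above all DMSO libraries. The log2 change was 1.27 ± 0.12 in FDX1-OE cells (adjusted p = 1.31e-05) and 0.73 ± 0.12 in control cells (adjusted p = 0.00112).

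Among the receptors, CD40 rose. CD40, the receptor through which T cells help B cells, was at 43.2 and 42.1 FPKM in FDX1-OE cells given ES, against 18.3 and 17.1 FPKM in FDX1-OE cells given DMSO. It was at 28.3 and 27.4 FPKM in control cells given ES, against 19.1 and 19.3 FPKM in control cells given DMSO. Its groups were tight and did not overlap, and the log2 change was 1.22 ± 0.06 in FDX1-OE cells (adjusted p = 1.96e-07) and 0.51 ± 0.06 in control cells (adjusted p = 0.000121).

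Neither death receptor for TRAIL passed as higher alongside its ligand. TNFRSF10A, TRAIL receptor 1, was at 13.0 and 12.3 FPKM in FDX1-OE cells given ES, against 16.0 and 16.9 FPKM in FDX1-OE cells given DMSO. It was at 14.0 and 16.0 FPKM in control cells given ES, against 16.5 and 19.1 FPKM in control cells given DMSO. It fell in FDX1-OE cells, by 0.35 on the log2 scale (SE 0.08, adjusted p = 0.00443). In control cells the log2 change was -0.23 (95% confidence interval -0.41 to -0.05, adjusted p = 0.0504), and without replicate 1 of control cells given DMSO or replicate 2 of control cells given ES the adjusted p was 0.0281 and 0.0304. It was also below the threshold with the filter set at a mean of 5 FPKM (0.0425), under RLE scaling (0.0138) and with voom on recovered reads (0.0347). TNFRSF10A shares exonic bases with 2 transcripts on the other strand, and whether the counting used strand is not given in the sources used here.

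TNFRSF10B, TRAIL receptor 2, was at 5.21 and 5.63 FPKM in FDX1-OE cells given ES, against 5.03 FPKM in both libraries of FDX1-OE cells given DMSO. It was at 4.46 and 4.04 FPKM in control cells given ES, against 4.56 and 5.30 FPKM in control cells given DMSO. Neither difference passed, with log2 changes of 0.09 (95% confidence interval -0.09 to 0.28, adjusted p = 0.375) in FDX1-OE cells and -0.17 (-0.36 to 0.01, adjusted p = 0.126) in control cells. Under RLE scaling the first was -0.031 and the second passed (adjusted p = 0.0369). TNFRSF10B shares 67 exonic bases with RHOBTB2 on the other strand, which averaged between 11.4 and 14.5 FPKM over the groups.

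TNFRSF13C, the BAFF receptor, lay between 14.4 and 16.6 FPKM in all 8 libraries. It was at 15.6 and 14.8 FPKM in FDX1-OE cells given ES, against 16.0 and 15.1 FPKM in FDX1-OE cells given DMSO. It was at 14.4 and 14.8 FPKM in control cells given ES, against 16.0 and 16.6 FPKM in control cells given DMSO. The FDX1-OE groups overlapped and the control groups did not, and neither change passed, at -0.03 (95% confidence interval -0.17 to 0.11, adjusted p = 0.694) in FDX1-OE cells and -0.15 (-0.28 to -0.01, adjusted p = 0.0814) in control cells. Under RLE scaling both passed as lower, with adjusted p values of 0.0436 and 0.0147.

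FAS, the death receptor for FAS ligand, was under 1 FPKM in every library and outside the tests. It was at 0.632 and 0.793 FPKM in FDX1-OE cells given ES, against 0.202 and 0.209 FPKM in FDX1-OE cells given DMSO. It was at 0.205 and 0.232 FPKM in control cells given ES, against 0.108 and 0.111 FPKM in control cells given DMSO. These levels rest on 176 and 224, 57 and 56, 55 and 63, and 30 and 32 reads in the same order, and the groups did not overlap within either kind of cell. The ratio of mean FPKM was 3.47 in FDX1-OE cells and 1.99 in control cells. With no level filter the adjusted p was 0.000924 in FDX1-OE cells and 0.0885 in control cells. FAS shares 380 exonic bases with ACTA2 on the other strand, and ACTA2 was at 0.220 and 0.429 FPKM in FDX1-OE cells given ES and at most 0.0471 FPKM elsewhere.

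**Figure D2:**
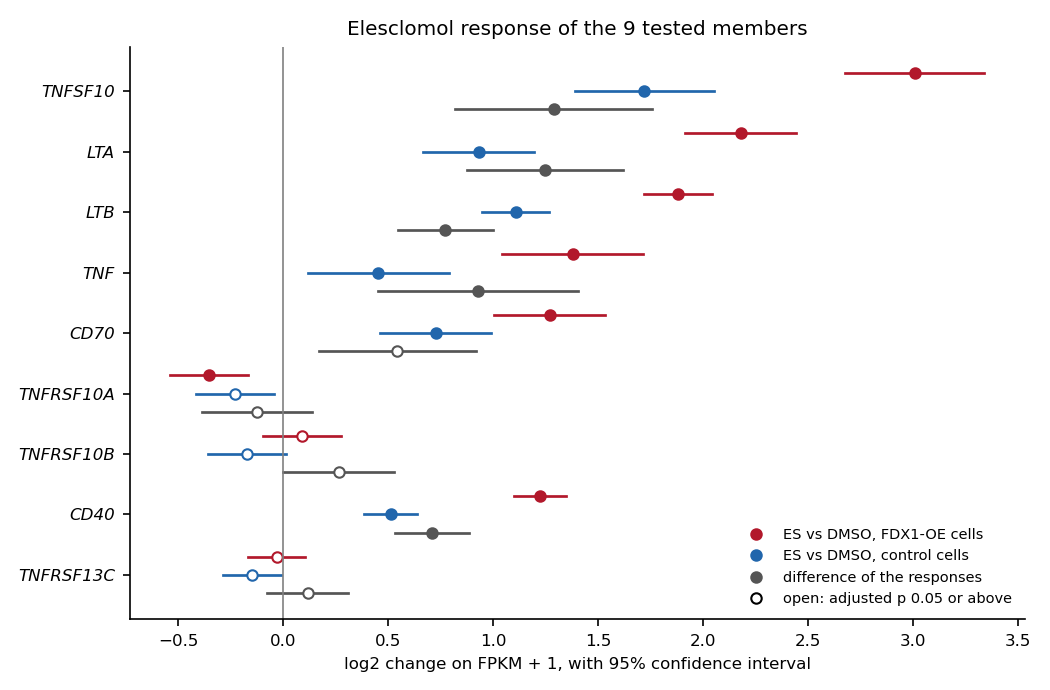
Log2 change on FPKM + 1 with ES against DMSO for the 9 tested genes, in FDX1-OE cells (red), in control cells (blue) and as the FDX1-OE response minus the control response (grey). Bars are 95% confidence intervals and open points have an adjusted p of 0.05 or above. TNFSF10 has the largest response in both kinds of cell, at 3.01 and 1.72, and the TNFRSF10A, TNFRSF10B and TNFRSF13C responses lie between -0.35 and 0.09.

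The response itself differed between FDX1-OE and control cells for 5 of the 9 genes, all with the larger response in FDX1-OE cells. Of all genes tested, 3.25% had a larger log2 change in FDX1-OE cells by this test, and the share of calls in that direction was 47.5% under RLE scaling, in place of 75.6%. For CD40 the difference of log2 changes was 0.71 ± 0.08 (adjusted p = 0.00268), and for LTB it was 0.77 ± 0.10 (adjusted p = 0.00420). Both passed under every alternative tried. For LTA it was 1.25 ± 0.17 (adjusted p = 0.00469), and it missed the threshold with no level filter alone (adjusted p = 0.0615).

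TNFSF10 and TNF were less settled. The difference for TNFSF10 was 1.29 ± 0.21 (adjusted p = 0.0111), but it started from different low levels, and the ratio of its ES to DMSO ratios was 1.42 on plain FPKM. With a pseudocount of 0.1 FPKM its difference was 0.74 (adjusted p = 0.183), with voom on recovered reads 0.57 (adjusted p = 0.449), and with no level filter the adjusted p was 0.0920. On plain FPKM the same quotient was 2.80 for LTA, 2.06 for TNF, 1.75 for LTB and 1.66 for CD40. For TNF the difference was 0.93 ± 0.21 (adjusted p = 0.0412), and it was lost with a pseudocount of 0.1 FPKM (adjusted p = 0.0652), with no filter (adjusted p = 0.168) and without control DMSO replicate 2, FDX1-OE DMSO replicate 2, or any 1 of the 4 ES libraries, with adjusted p values up to 0.125. Without control DMSO replicate 2 its value was 0.64. CD70 had a difference of 0.54 (95% confidence interval 0.17 to 0.92, adjusted p = 0.0915), which passed without replicate 1 of control cells given ES (0.70, adjusted p = 0.0333). The receptors TNFRSF10A, TNFRSF10B and TNFRSF13C had differences of -0.12, 0.26 and 0.12, with adjusted p values of 0.584, 0.224 and 0.465.

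Under ES, FDX1-OE cells carried more of the ligands than control cells. Of the 9 genes, 7 were higher in FDX1-OE cells given ES than in control cells given ES, against 13.6% of all genes tested that were higher and 7.78% that were lower. Under RLE scaling 43% of all calls in this comparison were higher, in place of 63.6%. The values by library are those given above. TNFSF10 was higher by a log2 change of 2.04 ± 0.15 (adjusted p = 2.23e-05), LTA by 1.05 ± 0.12 (adjusted p = 0.000334) and TNF by 1.04 ± 0.15 (adjusted p = 0.00147). CD70 was higher by 0.80 ± 0.12 (adjusted p = 0.00169), CD40 by 0.60 ± 0.06 (adjusted p = 0.000118) and LTB by 0.55 ± 0.07 (adjusted p = 0.000814). The libraries of the groups did not overlap for any of these 6, and all 6 passed with each library left out in turn.

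The TRAIL receptors had changes of opposite sign here and were not tested against each other. TNFRSF10B was higher by 0.29 ± 0.08 (adjusted p = 0.0329), a call lost without replicate 2 of control cells given ES (adjusted p = 0.197), without replicate 1 or 2 of FDX1-OE cells given ES (adjusted p = 0.0762 and 0.150), with no filter (0.0869) and under RLE scaling (0.0564). TNFRSF10A had a log2 change of -0.23 (95% confidence interval -0.41 to -0.04, adjusted p = 0.0766), which passed as lower under RLE scaling (adjusted p = 0.0377) and without replicate 1 of control cells given ES (adjusted p = 0.0424). TNFRSF13C had a log2 change of 0.06 (-0.08 to 0.19, adjusted p = 0.557). FAS, outside the tests, had a ratio of mean FPKM of 3.26 and an adjusted p of 0.00531 with no level filter.

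Without ES, no member passed between the genotypes. By limma, 0 of the 9 genes passed in FDX1-OE cells given DMSO against control cells given DMSO, where 0.51% of all genes tested did, 0.428% as higher and 0.0816% as lower. At an unadjusted p below 0.05 there were 2, TNFSF10 as higher and LTB as lower, against 711 of all 9805 genes tested. Voom on recovered reads called 1, TNFSF10, against 71 higher and 11 lower of all 9805. TNFSF10 was at 1.10 and 1.62 FPKM in FDX1-OE cells given DMSO, against 0.434 and 0.355 FPKM in control cells given DMSO, a log2 change of 0.75 ± 0.15 (adjusted p = 0.0659). The libraries did not overlap, and the ratio of mean FPKM was 3.46. TNFSF10 passed with a pseudocount of 0.1 FPKM (log2 change 1.55, adjusted p = 0.00700), with voom (1.75, adjusted p = 0.0362), with the 4 libraries compared alone (adjusted p = 0.0174) and with the filter set at a mean of 5 FPKM (adjusted p = 0.0391). It also passed without FDX1-OE DMSO replicate 1 (adjusted p = 0.0379) and without either control ES library (adjusted p = 0.0152 for each). LTB had a log2 change of -0.22 ± 0.07 (adjusted p = 0.420), and the other 7 genes lay between -0.20 and 0.25.

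**Figure D3:**
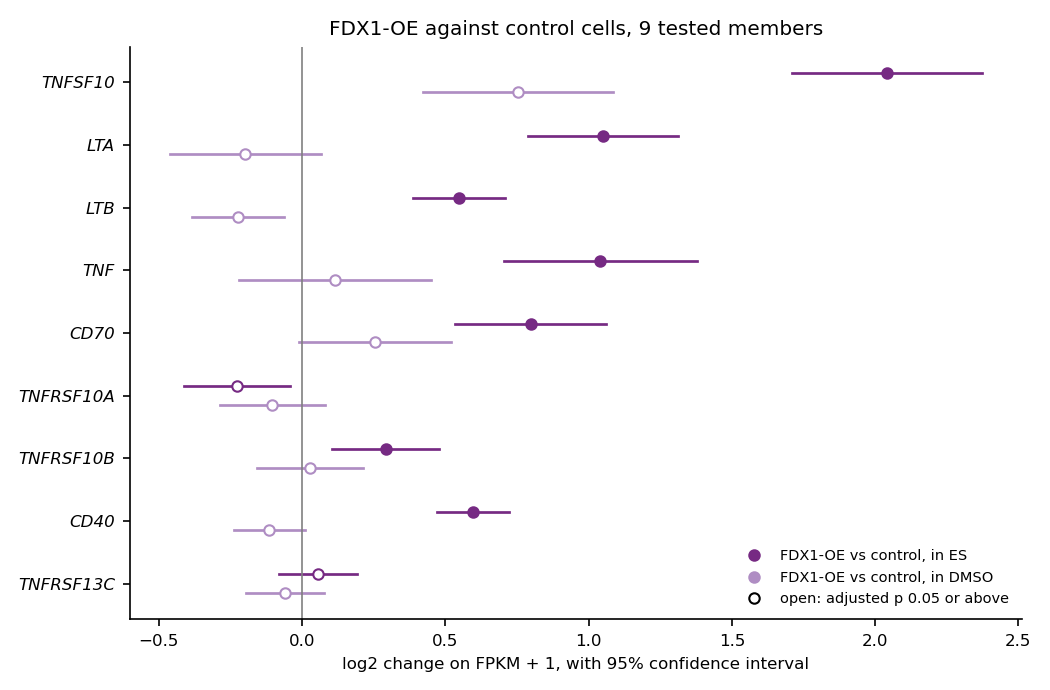
Log2 change on FPKM + 1 of FDX1-OE against control cells for the 9 tested genes, with ES and with DMSO. Bars are 95% confidence intervals and open points have an adjusted p of 0.05 or above. With ES 7 genes are higher, led by TNFSF10 at 2.04, and with DMSO no gene passes.

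Most other ligands and receptors of the superfamily were below the level for testing. Of 13 other TNF superfamily ligands, 3 reached the level for testing. In FDX1-OE cells given ES 2 of these rose, where 37% of all genes tested did. They were TNFSF8, the CD30 ligand, and TNFSF9, the 4-1BB ligand. In control cells 0 of the 3 were called, where 25.5% of all genes tested rose and 12.9% fell. The log2 changes in control cells were 0.23 for TNFSF8 (adjusted p = 0.0955) and -0.18 for TNFSF9 (adjusted p = 0.166). TNFSF8 averaged 2.62 ± 0.0777 FPKM in FDX1-OE cells given ES, against 1.48 ± 0.331 FPKM in FDX1-OE cells given DMSO (SD, n = 2 each), a log2 change of 0.55 ± 0.10 (adjusted p = 0.000819). The TNFSF9 call (log2 change 0.31, adjusted p = 0.0196) was lost without any 1 of the 4 FDX1-OE libraries (adjusted p up to 0.0772), with no filter and under RLE scaling. FASLG, the ligand of FAS, was at most 0.0159 FPKM in any library. TNFSF13B, the BAFF ligand of TNFRSF13C, was at 0.638 and 0.658 FPKM in FDX1-OE cells given ES and at most 0.101 FPKM elsewhere.

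Of 24 other receptors of the superfamily, 6 were tested, of which 5 rose in FDX1-OE cells, where 37% of all genes tested did, and 4 rose and 1 fell in control cells, where 25.5% and 12.9% did. The 1 that fell was RELT, a receptor of lymphoid tissue (log2 change -0.27, adjusted p = 0.0186), a call lost with no filter (adjusted p = 0.0755) and without replicate 2 of control cells given ES (adjusted p = 0.131) or either control library given DMSO (adjusted p = 0.0721 and 0.0773). TNFRSF1A, the main receptor of TNF, was at 3.79 and 3.08 FPKM in FDX1-OE cells given ES, against 0.571 and 0.327 FPKM in FDX1-OE cells given DMSO, and at 1.86 and 1.40 FPKM in control cells given ES, against 0.302 and 0.365 FPKM in control cells given DMSO. Its log2 change was 1.62 ± 0.12 in FDX1-OE cells (adjusted p = 3.57e-06) and 0.98 ± 0.12 in control cells (adjusted p = 0.000282). It was under 1 FPKM in all 4 DMSO libraries and passed the level filter only through its values under ES. TNFRSF6B, a soluble decoy that binds FAS ligand, rose by 1.26 ± 0.13 in FDX1-OE cells (adjusted p = 1.99e-05) and by 0.63 ± 0.13 in control cells (adjusted p = 0.00340). TNFRSF17, the BCMA receptor of plasma cells, rose by 0.90 ± 0.13 in FDX1-OE cells (adjusted p = 0.000212). CD27, the receptor of CD70, rose by 0.43 ± 0.05 in FDX1-OE cells (adjusted p = 6.08e-05), where it averaged 98.8 ± 0.604 FPKM with ES, against 72.9 ± 2.39 FPKM with DMSO, and by 0.46 ± 0.05 in control cells (adjusted p = 0.000136), where it averaged 91.4 ± 3.36 FPKM with ES, against 66.2 ± 1.76 FPKM with DMSO (SD, n = 2 each).

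Several other receptors that bind these ligands were near the floor or under the level for testing. LTBR, the receptor of the membrane lymphotoxin, had at most 2 reads and 0.0209 FPKM in any library, and TNFRSF1B, the second TNF receptor, at most 10 reads and 0.0756 FPKM. The TRAIL decoy receptor TNFRSF10C was listed at 0 in all libraries but 1, where it had 0.124 FPKM. The other decoy, TNFRSF10D, averaged 0.674 ± 0.0124 FPKM in FDX1-OE cells given ES, against 0.135 ± 0.0591 FPKM in FDX1-OE cells given DMSO, and 0.378 ± 0.0508 FPKM in control cells given ES, against 0.124 ± 0.0481 FPKM in control cells given DMSO (SD, n = 2 each). TNFRSF10D was under the level for testing but not near the floor, with 84 and 83, 22 and 11, 49 and 41, and 11 and 20 reads in the same order.

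Of 13 genes of death receptor signalling, 10 were tested, and under ES 7 rose and 1 fell in FDX1-OE cells, where 37% of all genes tested rose and 19.2% fell, and 5 rose and 1 fell in control cells, where 25.5% rose and 12.9% fell. The median log2 change of the 10 was 0.37 in FDX1-OE cells, against 0.09 over all genes, and 0.22 in control cells, against 0.06. BIRC3, an inhibitor of apoptosis that binds TRAF2, averaged 9.77 ± 0.0537 FPKM in FDX1-OE cells given ES, against 4.18 ± 0.182 FPKM in FDX1-OE cells given DMSO, a log2 change of 1.06 ± 0.07 (adjusted p = 2.23e-06). In control cells it rose by 0.61 ± 0.07 (adjusted p = 0.000217). RIPK1, the kinase downstream of TNF receptor 1, rose in FDX1-OE cells by 0.61 ± 0.08 (adjusted p = 7.27e-05) and caspase-8 (CASP8) by 0.53 ± 0.08 (adjusted p = 0.000299). The gene that fell was FADD, the adaptor between death receptors and caspase-8, by 0.31 in FDX1-OE cells (adjusted p = 0.00189) and by 0.27 in control cells (adjusted p = 0.00747) on the log2 scale. CFLAR, which encodes the caspase-8 inhibitor FLIP, was between 0.127 and 0.441 FPKM and was not tested.

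All 11 genes of the TRAF and non-canonical NF-kB list were tested, and 4 rose and 1 fell in FDX1-OE cells under ES, while 2 rose and 3 fell in control cells. The share that rose was near that of all genes tested in FDX1-OE cells (37%) and not above it in control cells (25.5%). The counts of genes that rose therefore set nothing apart about the list. Of all genes tested, 19.2% fell in FDX1-OE cells and 12.9% in control cells. The 3 of 11 that fell in control cells were above that share, but 2 of these calls were lost on leaving out single libraries, as given below. TRAF1, an adaptor that NF-kB induces and that binds CD40 and other family receptors, was at 13.4 and 14.4 FPKM in FDX1-OE cells given ES, against 3.44 and 3.67 FPKM in FDX1-OE cells given DMSO, and at 5.63 and 4.30 FPKM in control cells given ES, against 3.16 and 2.93 FPKM in control cells given DMSO. Its log2 change was 1.71 ± 0.10 in FDX1-OE cells (adjusted p = 7.97e-07) and 0.55 ± 0.10 in control cells (adjusted p = 0.00202), and the difference of 1.15 ± 0.14 passed (adjusted p = 0.00326), also under every alternative tried. NFKB2, which encodes the p100 precursor, rose in FDX1-OE cells by 0.78 ± 0.08 (adjusted p = 2.44e-05), and its partner RELB by 0.62 ± 0.09 (adjusted p = 0.000180). The gene that fell in FDX1-OE cells was CHUK, the kinase IKK alpha, by 0.31 on the log2 scale (adjusted p = 0.00202). In control cells TRAF3, which restrains the non-canonical pathway, fell by 0.31 on the log2 scale (adjusted p = 0.00480). The other two that fell there, CHUK and TRAF4, had adjusted p values of 0.0396 and 0.0469 and were lost on leaving out single libraries, CHUK without any 1 of the 4 control libraries or of the 2 FDX1-OE libraries given DMSO and TRAF4 without any 1 library other than replicate 1 of control cells given ES. FADD, RELT, CD3E, TRAF4 and, in FDX1-OE cells, CHUK and CD27 were named after their values were seen.

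Between FDX1-OE cells given ES and control cells given ES, 2 of 3 ligands, 3 of 6 receptors, 4 of 10 death receptor signalling genes and 5 of 11 TRAF and NF-kB genes were higher, against 13.6% of all genes tested, a comparison in which the share of higher calls also changes with RLE scaling, as given above. The largest were TRAF1, by 1.33 ± 0.10 (adjusted p = 2.82e-05), TNFRSF1A, by 0.75 ± 0.12 (adjusted p = 0.00275), TNFRSF17, by 0.74 ± 0.13 (adjusted p = 0.00356), and NFKB2, by 0.58 ± 0.08 (adjusted p = 0.00117). In DMSO limma called 0 of these 30 genes and voom on recovered reads also 0. By limma 8 had an unadjusted p below 0.05, 4 as higher and 4 as lower, against 711 of all 9805 genes tested.

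**Figure D4:**
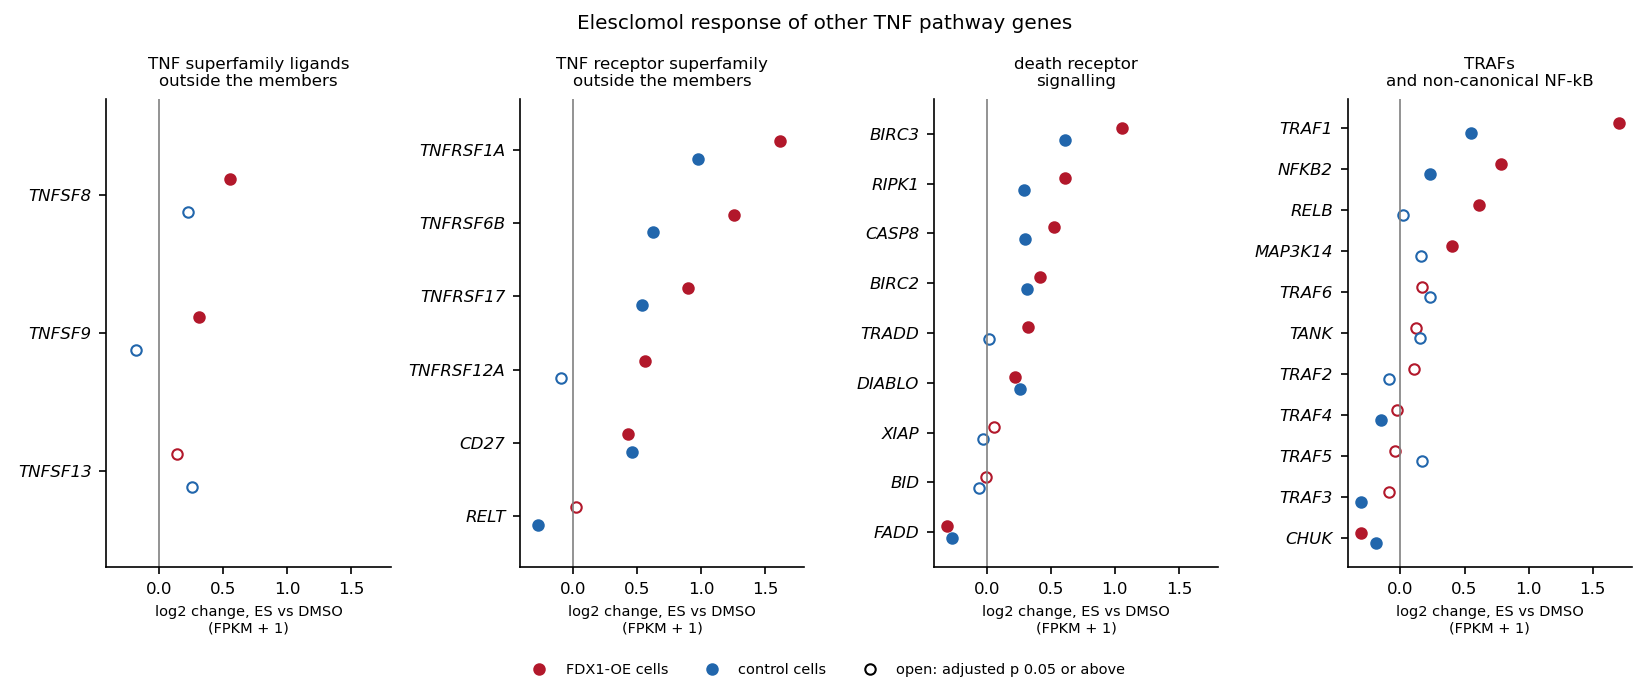
Log2 change on FPKM + 1 with ES against DMSO for tested genes of 4 lists, in FDX1-OE cells (red) and control cells (blue). Filled points have an adjusted p below 0.05 and open points do not. TRAF1 and TNFRSF1A have the largest changes in FDX1-OE cells, at 1.71 and 1.62.

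TNFSF10 and LTB had different nearest genes. Likeness was measured as the root mean square difference between log2(FPKM + 1) profiles centred on their own means, over all 8 libraries and 9804 other tested genes. The 5 nearest to TNFSF10 were CCL5 (0.0902), RTP4 (0.208), MX2 (0.215), CD68 (0.285) and CXCL11 (0.293). CCL5, a chemokine, averaged 48.5 FPKM in FDX1-OE cells given ES and 5.75 FPKM in FDX1-OE cells given DMSO, against 11.6 FPKM in control cells given ES and 2.57 FPKM in control cells given DMSO. Among the 5 nearest to LTB were RASGRP3 (0.122), IRF9 (0.148), CTSO (0.149) and LGMN (0.175). The FPKM + 1 scale understates changes of low genes. CTSO averaged 2.17 FPKM in FDX1-OE cells given ES and 0.0752 FPKM in FDX1-OE cells given DMSO. In control cells CTSO averaged 1.18 FPKM with ES and 0.132 FPKM with DMSO. CTSO and RTP4 averaged under 1 FPKM in both DMSO groups and passed the level filter only through their values under ES. RASGRP3, a Ras exchange factor of B cells, averaged 7.81 FPKM in FDX1-OE cells given ES and 1.63 FPKM in FDX1-OE cells given DMSO, against 5.00 FPKM in control cells given ES and 1.84 FPKM in control cells given DMSO. LTA ranked 23 for LTB, at 0.221, and 61 for TNFSF10, at 0.650. CD40 and CD70 ranked 101 and 107 for LTB.

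**Figure D5:**
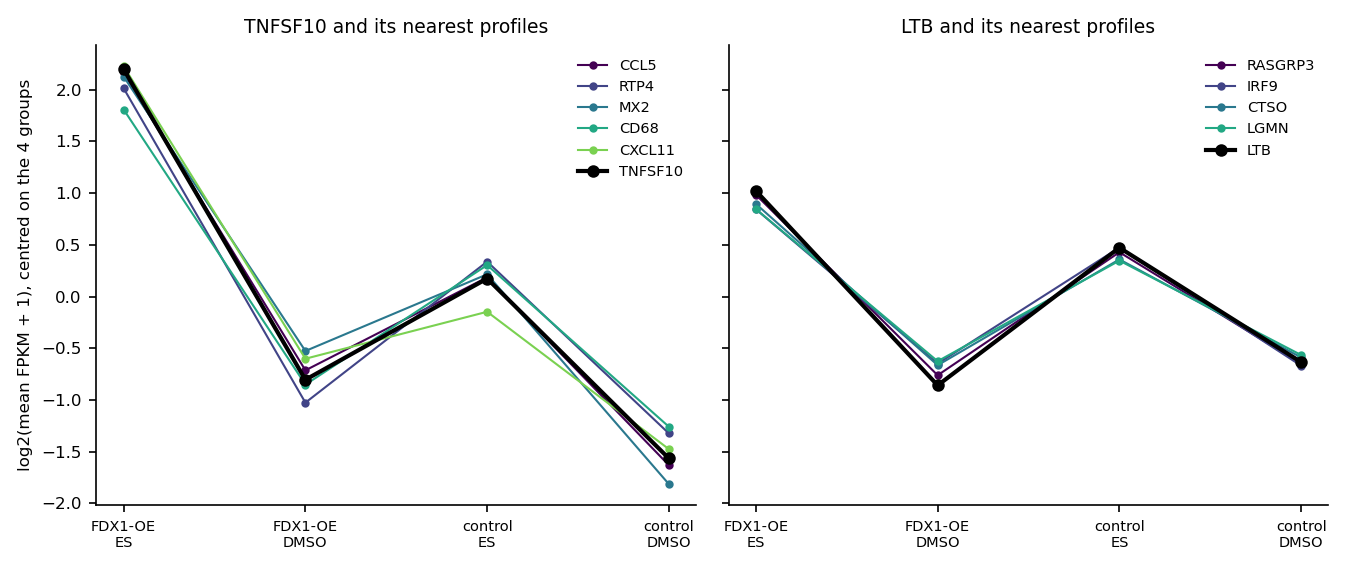
Values of log2(mean FPKM + 1) in the 4 groups, centred on each gene's mean over the groups, for TNFSF10 and LTB (black) and the tested genes named as nearest to each; lines only link the points of 1 gene. The control libraries given ES lie closer to the FDX1-OE libraries given ES for LTB, at 30.9 against 45.7 FPKM, than for TNFSF10, at 3.65 against 17.9 FPKM.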

How the data were processed

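The authors deposited FPKM values for 15597 genes in each of 8 libraries; the file headers state no unit, and FPKM was read from the values. The submitters' processing notes name the build hg19 and the tools HTSeq, HISAT2 and R 3.2.0, with no roles given. No source used here gives the annotation or the use of strand. Whole reads were recovered from the FPKM steps of 14429 genes (92.5%), for which 99.9% of values were whole within 0.02 read, and library totals lay between 33435438 and 35883528 reads. Depth limits low genes, as 3 reads of 1 kilobase came to between 0.0836 and 0.0897 FPKM, for counting error only.

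limma 3.58.1 in R 4.3.3 was run on log2(FPKM + 1) as 1 model of 4 group means over the 8 libraries, with 4 residual degrees of freedom, moderated with a mean trend, two-sided, and Benjamini-Hochberg adjustment over the 9805 genes that reached 1 FPKM in 2 or more libraries. Calls needed an adjusted p below 0.05. The labels do not say that replicates were separate cultures, so p-values reflect only how these libraries differ, which may be technical. Read recovery and limma were tested on simulated data. Alternatives were a replicate block, the compared libraries alone, a pseudocount of 0.1 FPKM, no filter, a filter at a mean of 5 FPKM, RLE scaling, voom on recovered reads and leaving out each library; voom with no FPKM filter, which tests FAS, was added after seeing the data. All 10 members are named, up to 4 called genes of largest change per list and comparison, and the 5 nearest profiles of TNFSF10 and LTB, except 2 genes that are not reported here. Members and lists were chosen with earlier results of these data known. Promoters are from RefSeq (GRCh38.p14), and gene neighbours from GENCODE 29, which differ in build from the files.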

Additional observations from a re-analysis of the deposited data

Results flagged for a closer look

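The ES response differed between FDX1-OE and control cells, by the limma test of the difference itself, for 5 of the 9 genes tested, where 4.3% of all genes tested passed in either direction. The FDX1-OE response minus the control response, on log2(FPKM + 1), was 1.29 for TNFSF10, 1.25 for LTA, 0.93 for TNF, 0.77 for LTB and 0.71 for CD40, with adjusted p values of 0.0111, 0.00469, 0.0412, 0.00420 and 0.00268. The TNFSF10 and TNF differences missed the threshold under several alternatives and that for LTA with no level filter, as given above. On plain FPKM the ratio of ES to DMSO ratios was smallest of the 5 for TNFSF10, at 1.42. Among the genes named from the other TNF pathway lists, the difference of log2 changes was 1.15 for TRAF1 and 0.60 for RELB. For NFKB2 this difference was 0.56 and for BIRC3 0.44. The adjusted p values were 0.00326, 0.0283, 0.0288 and 0.0449 in that order. Outside those lists CD68, at 1.10 (adjusted p = 0.00211), and FDX1, at 0.38 (adjusted p = 0.0469), also passed. The RELB, NFKB2 and BIRC3 differences missed the threshold with no level filter and on leaving out some single libraries, among them replicate 1 of control cells given DMSO (adjusted p = 0.0602, 0.0570 and 0.127). With 2 libraries a group, no library was tested for standing apart from its group.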

How the results depend on the processing

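Of 701 values of the 9 tested genes under the alternatives, 652 kept their direction and their side of the threshold, 23 lost a call, 20 gained one and 6 turned in direction. Those that turned had not been called. With ES in FDX1-OE cells these were TNFRSF10B under RLE scaling (-0.031) and TNFRSF13C on leaving out single libraries (-0.069 to 0.0080, turning without replicate 1 given DMSO or replicate 2 given ES). In FDX1-OE against control cells given DMSO they were TNFRSF10B (-0.063 to 0.12, turning without control replicate 1) and TNF (-0.17 to 0.40, turning without replicate 1 of either genotype). The genes called in FDX1-OE against control cells given DMSO were 1 of the members with the compared libraries alone, a pseudocount of 0.1 FPKM, a filter at a mean of 5 FPKM or voom on recovered reads, in place of 0. Over all genes they were 2 with no filter and 82 with voom, in place of 50. For the difference of responses the members called were 3 with a pseudocount of 0.1 FPKM and 2 with no filter, in place of 5, and all genes called were 222, 176 and, with voom, 640, in place of 422. The causes were not tested.

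Leaving out each library in turn, the members called ranged from 7 to 7 with ES in FDX1-OE cells, 5 to 6 with ES in control cells, 6 to 8 between genotypes given ES, 0 to 1 between genotypes given DMSO and 4 to 5 for the difference. All genes called ranged from 4355 to 5523, 2526 to 3701, 748 (without control ES replicate 2) to 1944, 15 (without control DMSO replicate 1) to 68, and 79 (without FDX1-OE ES replicate 1) to 630 in the same order. FAS, tested by voom on recovered reads with no FPKM filter, a choice made after seeing the data, had a log2 change of 1.78 with ES in FDX1-OE cells (adjusted p = 3.3e-05), 0.98 in control cells (0.0771), 1.69 between genotypes given ES (0.000244), 0.90 between genotypes given DMSO (0.736) and a difference of 0.80 (0.405).

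The labels do not say that a replicate number marks a shared culture, and deviations from group means of same-numbered libraries correlated between -0.18 and 0.18 across genes over the 6 pairs of groups. With the replicate number as a block, 7, 7, 7, 0 and 5 members and 5575, 3804, 2173, 56 and 526 genes were called in the same order, and the member that gained a call was TNFRSF10A with ES in control cells (-0.23, adjusted p = 0.0343). With 2 libraries a group, genes of few reads, FAS above all, carry the widest error.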
